A study of Rattus norvegicus with 17 samples.

Results

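Cytosolic ribosomal protein genes encode the proteins of the ribosome that translates nuclear mRNA. They were followed here in hippocampal synaptosomes, the fraction of pinched-off nerve terminals, of adult and aged rats. Members were the probes of the array whose current gene symbol starts with Rpl or Rps and a digit, or is Rpsa, Rplp0, Rplp1 or Rplp2, with the Rps6k kinases left out. By symbol, 68 probes of 67 genes matched, and 61 probes of 61 genes were tested, out of 10457 tested probes and 22226 probes in all. The test took in a probe if all arrays of 1 group or more gave it a detection p-value under 0.05, and each of the 61 was detected on all 17 arrays.

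The rats were male Fischer 344 × Brown Norway F1 hybrids, with 1 array per rat. The 5 adult rats were 12 months old. The 12 aged rats were 28 months old, and by their performance in the Morris water maze 5 of them were cognitively intact and 7 cognitively impaired. No rat carried an engineered allele or received a drug according to the labels, and the design asks which transcripts of the synaptosome differ with age and which with cognitive status. All adult arrays lay on 1 slide and all aged arrays on another, so that age and slide cannot be told apart. Aged intact and aged impaired rats shared a slide but held different positions on it. Intact rats held positions 1, 2, 4, 6 and 7 and impaired rats positions 3, 5 and 8 to 12. Position on the slide and cognitive status are therefore partly confounded. The mean signal per array ran from 313 to 617 and the number of detected probes from 10440 to 11565. Adult replicate 4 detected the fewest probes and correlated least with the other arrays, at a mean of 0.976 where the rest reached at least 0.986.

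Each cytosolic ribosome joins a small subunit, which reads the mRNA, with a large subunit, which forms peptide bonds, and cells make the proteins of both in matched amounts. Most vertebrate mRNAs of this family begin with a cytosine followed by a run of pyrimidines, the terminal oligopyrimidine or TOP tract, through which the mTOR pathway and the RNA-binding protein Larp1 control their translation. Some of these mRNAs are known to be present in axons and dendrites of cultured neurons, where local translation takes place.

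Among the tested genes, 31 encode proteins of the large subunit, 22 of the small subunit and 2 of the acidic stalk that recruits elongation factors (Rplp0 and Rplp1). A further 5 were classed as paralogues by the ending of their symbols (Rpl3l, Rpl7l1, Rpl22l1, Rpl36al1 and Rpl37l1) and were counted apart from both subunits. Rps19bp1 matched the symbol rule although its product is a binding partner of Rps19 and not a ribosomal protein. The 6 genes that were not tested were Rpl11, Rpl12, Rpl34, Rpl36a and Rps19, whose probes were detected on 0 of 17 arrays, and Rplp2, whose probe was detected on 14 of 17 arrays, with at least 1 miss in each group. A probe that is not detected says nothing firm about its transcript, and Rps19 was missed by both of its probes. No probe carried the symbols Rpl10 or Rpl23a. Ribosomal protein genes have many processed pseudogenes with nearly the same sequence, and signal from such copies was not separable from that of the named gene.

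What the members share beside their symbols could be seen at their transcription start sites. Windows around the start were taken from RefSeq (GRCr8), which held 52 of the 61 genes. These 10 windows were chosen to show the tracts of genes described later, with Rpl3, Rps4x and Rps19bp1 as examples of members without a long tract. Each runs 5′ to 3′ from 25 bases before the start to the 20th base of the transcript, and capitals mark the longest unbroken run of C and T within 20 bases on either side of the start.
Rpl22: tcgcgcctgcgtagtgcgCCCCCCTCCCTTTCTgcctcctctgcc
Rpl13a: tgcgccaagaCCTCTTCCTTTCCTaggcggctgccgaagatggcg
Rps24: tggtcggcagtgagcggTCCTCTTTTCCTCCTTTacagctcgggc
Rps2: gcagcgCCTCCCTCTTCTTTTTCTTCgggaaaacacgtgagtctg
Rps13: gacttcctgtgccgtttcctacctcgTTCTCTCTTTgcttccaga
Rps26: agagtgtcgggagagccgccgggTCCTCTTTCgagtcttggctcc
Rplp1: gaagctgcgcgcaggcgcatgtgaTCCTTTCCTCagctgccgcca
Rpl3: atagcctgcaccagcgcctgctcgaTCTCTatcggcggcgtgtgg
Rps4x: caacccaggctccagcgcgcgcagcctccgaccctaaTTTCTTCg
Rps19bp1: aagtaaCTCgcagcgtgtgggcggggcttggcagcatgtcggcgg

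The windows lie at chr5:168117936-168117980 (plus strand) for Rpl22, chr1:104748894-104748938 (minus) for Rpl13a, chr16:96492-96536 (plus) for Rps24 and chr10:14251823-14251867 (plus) for Rps2. Those of Rps13 and Rps26 lie at chr1:180009641-180009685 and chr7:1643385-1643429, both on the minus strand. Those of Rplp1, Rpl3, Rps4x and Rps19bp1 lie at chr8:71290853-71290897, chr7:113507971-113508015, chrX:71342902-71342946 and chr7:113693004-113693048, all on the minus strand. Over the 52 windows the longest pyrimidine run had a median of 10 bases and ranged from 3 bases, as in Rps19bp1, to 21, and 73.1% held a run of 8 bases or more. Over all 33469 windows in the RefSeq table the median was 5 bases and 15.5% held such a run. Of 3 pyrimidine motifs searched in the direction of transcription, CTTTC was found in 50% of the members' windows and 4.97% of all, CTCTT in 36.5% and 5.56%, and CTTCC in 38.5% and 8.28%. At least 1 of them was present in 38 of the 52, or 73.1% against 16.1% of all. The motifs overlap each other in runs such as that of Rpl13a. On the opposite strand they were found in 1.92% (as GAAAG), 0% (as AAGAG) and 5.77% (as GGAAG) of the members' windows, and in 5.07%, 5.38% and 9.05% of all. The 52 genes lay on 17 chromosomes, with at most 9 on 1 of them, chromosome 1. Runs were counted on either side of the annotated start. That of Rpl13a lies wholly before the start, and that of Rps2 begins at base -19. A run in these windows therefore need not be a TOP tract of the mRNA.

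With age, no ribosomal protein gene passed the threshold. In aged rats, taken as the mean of the intact and impaired groups, 0 of 61 members differed from adults at an adjusted p under 0.05 in the limma fit over all tested probes, where 1.2% of all probes did. The log2 differences ran from -0.23 for Rpl7l1 to 0.46 for Rps13 and had a median of 0.05, against -0.01 over all tested probes. At an unadjusted p under 0.05 there were 17 members (17.2% of all probes), with 12 higher in aged rats (19.7% of members, 6.25% of all probes) and 5 lower (8.2% of members, 11% of all probes). No member separated the 12 aged rats from the 5 adult rats without overlap, where 0.593% of all probes did so upwards and 0.325% downwards. The 95% interval of the difference lay within 1.2-fold in either direction for 32 members and within 1.5-fold for 55. The 32 included all 7 members with a mean log2 intensity under 8. At that dim level a difference could depend on the background used, as described below for Rpl5.

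The members nearest to the threshold on the higher side were proteins of both subunits. Rps4x, an X-linked protein of the small subunit, had log2 intensities of 13.14, 13.24, 13.25, 13.38 and 13.23 in adult replicates 1 to 5 and of 13.38, 13.41, 13.34, 13.34 and 13.28 in aged intact rats. In aged impaired rats Rps4x ran from 13.32 to 13.54 with a median of 13.38. All adult rats except replicate 4 lay below all 12 aged rats, and replicate 4 lay among them. The difference for Rps4x was 0.13 ± 0.038 (SE; limma adjusted p = 0.112), the smallest adjusted p of any member.

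Rps6, the small subunit protein that S6 kinase phosphorylates downstream of mTOR, had log2 intensities of 12.88, 12.83, 12.88, 12.60 and 12.84 in adult rats. Aged intact rats gave 13.04, 13.03, 12.90, 12.83 and 12.96 for Rps6, and aged impaired rats ran from 12.83 to 13.14 with a median of 12.95. The aged groups reached down into the upper adult values while 10 of the 12 aged rats lay above every adult rat. The difference for Rps6 was 0.15 ± 0.052 (SE; limma adjusted p = 0.155).

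Rpl22, a large subunit protein best known for binding structured RNA, had values of 12.12, 12.11, 12.11, 11.81 and 12.06 in adult rats and of 12.32, 12.28, 12.18, 12.00 and 12.07 in aged intact rats. In the aged impaired group Rpl22 ran from 12.14 to 12.41 with a median of 12.22. The aged impaired rats all lay above the adult rats and the aged intact rats overlapped them. Rpl22 was higher with age by 0.16 ± 0.062 (SE; limma adjusted p = 0.200).

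Rpl7, Rps13 and Rps26 showed larger differences with more spread. Rpl7, of the large subunit, had values of 10.02, 9.94, 9.87, 9.07 and 9.73 in adult rats, of 10.17, 10.25, 9.92, 10.01 and 10.08 in aged intact rats and of 9.88 to 10.62 with a median of 10.16 in aged impaired rats. Its difference with age was 0.43 ± 0.14 (SE; limma adjusted p = 0.141), and adult replicate 4 stood far below the other adults. Rps13, of the small subunit, had 10.72, 10.46, 10.49, 9.92 and 10.14 in adult rats, 10.83, 10.76, 10.49, 10.88 and 10.53 in aged intact rats and 10.26 to 11.57 with a median of 10.88 in aged impaired rats. The aged impaired group alone spanned most of the range of all 17 rats for Rps13, and the difference with age was 0.46 ± 0.18 (SE; limma adjusted p = 0.214). Rps26, another small subunit protein, averaged 12.65 ± 0.26 (SD, n = 5 adult rats), 12.85 ± 0.15 (SD, n = 5 aged intact rats) and 12.94 ± 0.17 (SD, n = 7 aged impaired rats).

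**Figure D1:**
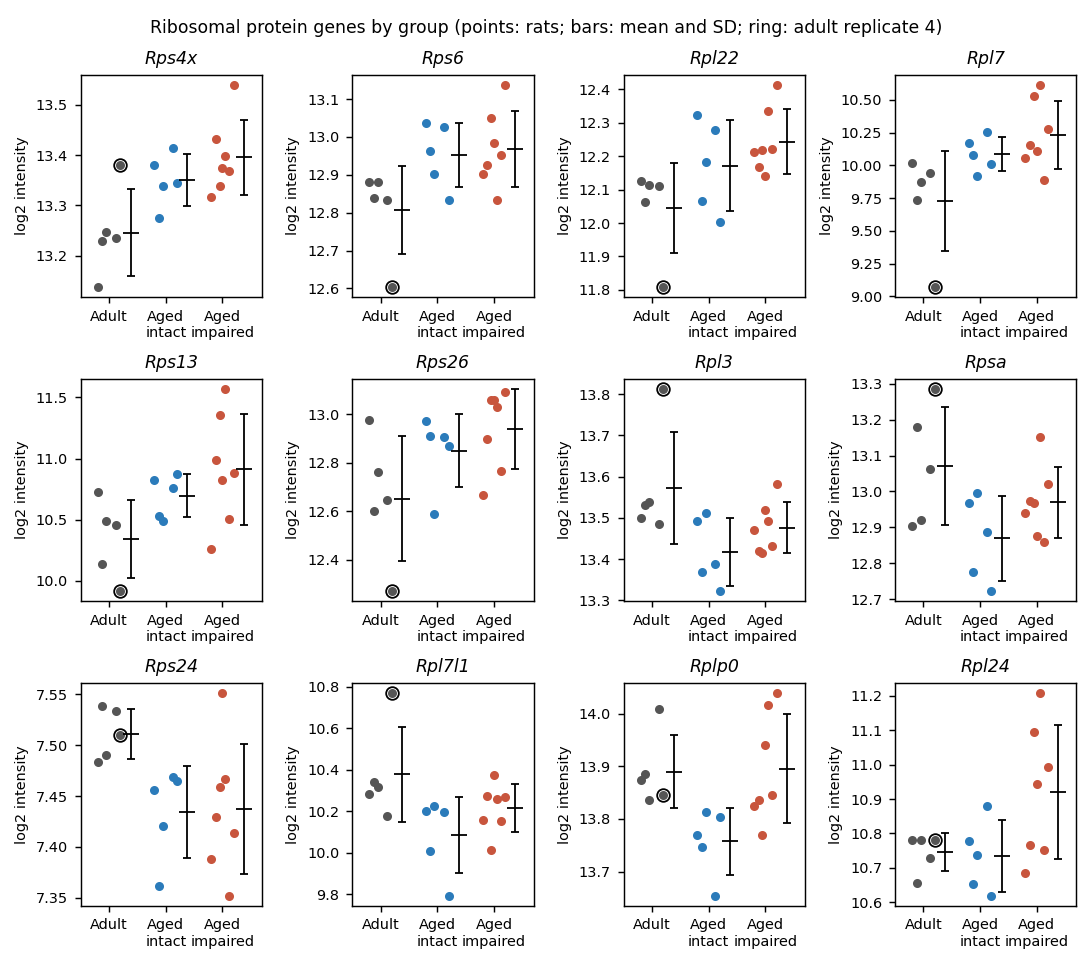
Log2 intensity (vertical axes, each panel with its own scale) of 12 ribosomal protein genes in the 3 groups, with 1 point per rat, the mean and SD of each group as bars and a ring around adult replicate 4. The ringed adult is the lowest adult for Rps6, Rpl22, Rpl7, Rps13 and Rps26 and the highest for Rps4x, Rpl3, Rpsa and Rpl7l1.

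On the lower side stood Rps24, Rpl3, Rpl7l1, Rpsa, Rpl21 and Rpl7a. Rps24, a small subunit protein whose human gene is mutated in some patients with Diamond-Blackfan anaemia, had values of 7.48, 7.53, 7.49, 7.51 and 7.54 in adult rats and of 7.46, 7.47, 7.42, 7.47 and 7.36 in aged intact rats. In aged impaired rats Rps24 ran from 7.35 to 7.55 with a median of 7.43. The aged intact rats all lay below the adult rats, and only the highest aged impaired rat lay above them. The difference of -0.08 ± 0.027 (SE; limma adjusted p = 0.172) was small on this scale, and Rps24 is among the 7 members with a mean log2 intensity under 8, at the dim end of the scale. With a background whose spread was taken from the middle of the negative controls it was -0.15 (limma adjusted p = 0.244).

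Rpl3, which lies close to the peptidyl transferase centre, averaged 13.57 ± 0.14 (SD, n = 5 adult rats), 13.42 ± 0.08 (SD, n = 5 aged intact rats) and 13.48 ± 0.06 (SD, n = 7 aged impaired rats). Its adult values were 13.50, 13.48, 13.54, 13.81 and 13.53, so that replicate 4 stood above the other adults. The difference for Rpl3 was -0.13 ± 0.049 (SE; limma adjusted p = 0.203), and it was -0.07 without adult replicate 4. Rpsa, the small subunit protein that is also known as the laminin receptor, averaged 13.07 ± 0.16 (SD, n = 5), 12.87 ± 0.12 (SD, n = 5) and 12.97 ± 0.10 (SD, n = 7) in the same order of groups. Rpsa was lower in aged rats by a log2 difference of -0.15 ± 0.065 (SE; limma adjusted p = 0.252), with overlap between the groups. For Rpl21 and Rpl7a of the large subunit the differences were -0.15 ± 0.064 and -0.21 ± 0.10 (SE), with limma adjusted p of 0.254 and 0.313. Without adult replicate 4 Rpsa differed by -0.10 and Rpl7a by -0.14.

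By subunit, 16 of 22 small subunit members and 17 of 31 large subunit members had higher means in aged rats, with medians of 0.08 and 0.00. Without adult replicate 4 these counts were 14 of 22 and 15 of 31, with medians of 0.02 and -0.00078. The difference between the subunits was not tested. Paralogues were set beside the genes they resemble. Rpl7 was higher by 0.43 and Rpl7l1, whose product has been linked to ribosome assembly, was lower by a log2 difference of -0.23 ± 0.089 (SE; limma adjusted p = 0.213), and these were 0.27 and -0.13 without adult replicate 4. Rpl22 was higher by 0.16 while Rpl22l1 differed by -0.02 ± 0.063 (SE; limma adjusted p = 0.900). Rpl3l, the paralogue of Rpl3 in striated muscle, averaged 7.23 ± 0.03 (SD, n = 5 adult rats), 7.20 ± 0.03 (SD, n = 5 aged intact rats) and 7.23 ± 0.03 (SD, n = 7 aged impaired rats), so that for both genes the lowest mean was that of the aged intact rats. The difference of Rpl3l with age was -0.02 ± 0.016 (SE; limma adjusted p = 0.532). Rpl3l had the smallest spread of any member, within-group SD 0.028, at the dim end of the scale.

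Other members with known roles were also measured. Rpl5, which carries 5S rRNA into the large subunit and binds Mdm2 when ribosome assembly fails, differed by 0.02 with a 95% interval from -0.04 to 0.08, at a dim mean level of 7.07. Its difference depended on the background, at 0.11 with no background correction, 0.18 with the background spread from the middle of the negative controls and 0.26 with average normalization, and it was -0.0075 without adult replicate 4. Rps14 of the small subunit differed by -0.05 with an interval from -0.17 to 0.07. Rps3, which also acts in DNA repair, differed by -0.09 with an interval from -0.31 to 0.13. With 1 array left out Rps14 ran from -0.08 to -0.02, its ends without adult replicates 4 and 1, and Rps3 from -0.17 to -0.05, its ends without adult replicate 1 and aged intact replicate 4. The stalk protein Rplp1 was higher by 0.20 with an interval from -0.05 to 0.44, and Rpl13a, which in human monocytes silences inflammatory mRNAs, was higher by 0.38 with an interval from 0.02 to 0.73 (limma adjusted p = 0.266). Rpl39 of the exit tunnel and Rps27 differed by 0.12 and 0.05, with intervals from -0.10 to 0.34 and from -0.13 to 0.23. Without adult replicate 4 the differences were 0.08 for Rplp1, 0.04 for Rpl39 and 0.0038 for Rps27.

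**Figure D2:**
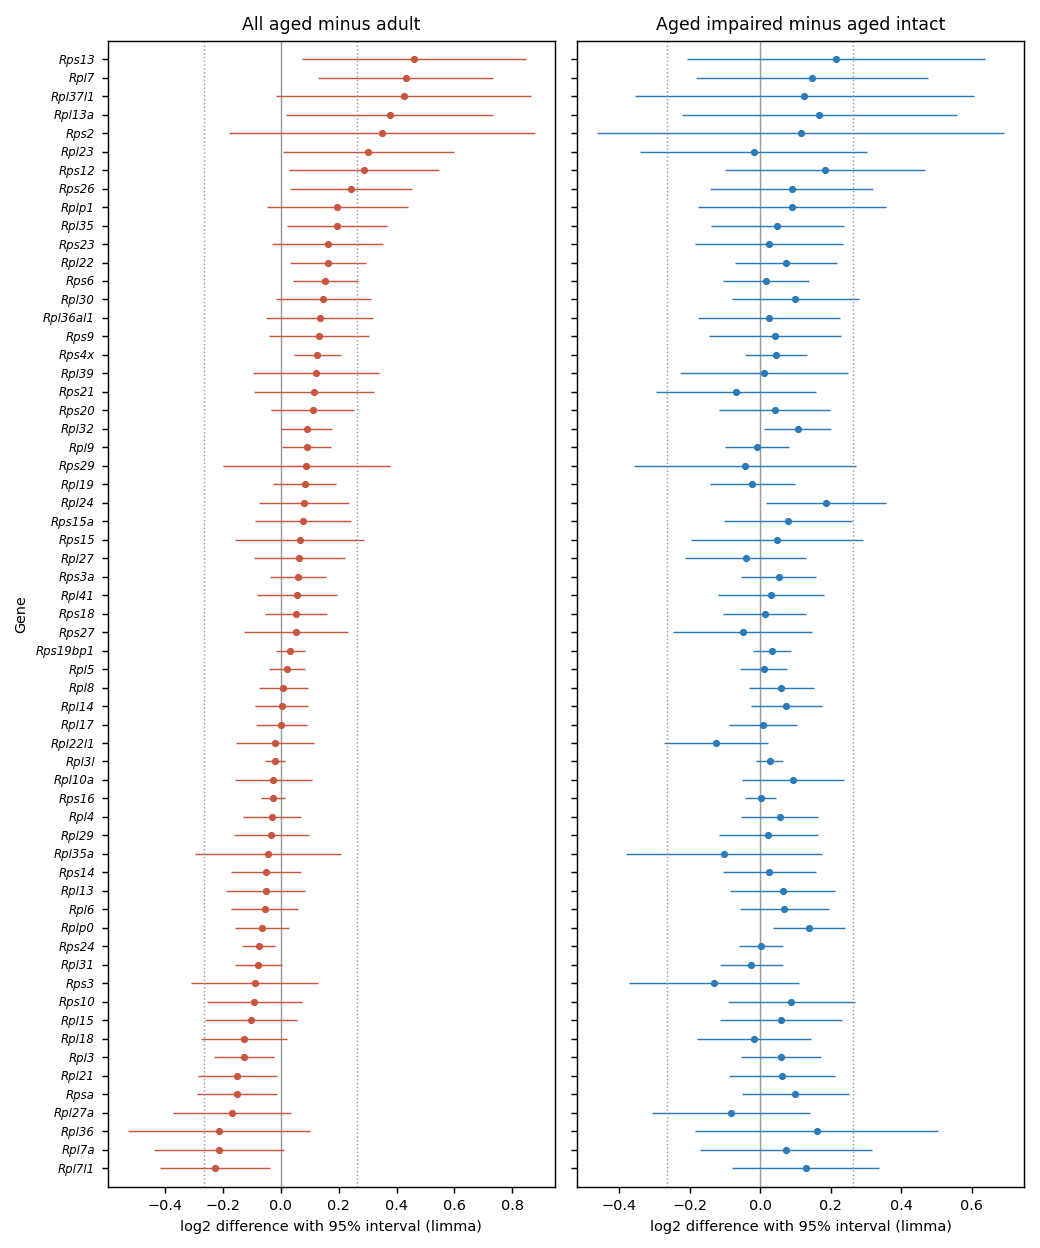
Log2 difference (horizontal axes) of each of the 61 tested members with its 95% interval from limma, for all aged minus adult rats on the left and for aged impaired minus aged intact rats on the right, with genes in the same order on both sides and dotted lines at 1.2-fold. The left panel runs from -0.23 for Rpl7l1 to 0.46 for Rps13, and on the right 48 of 61 points lie above 0.

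Against adults, the aged groups were also compared singly, with the same 5 adult rats in both comparisons. In aged intact rats 0 of 61 members were called (0.306% of all probes), and 9 members had an unadjusted p under 0.05 (12.7% of all probes), 3 of them higher (Rpl7, Rps4x and Rps6; 4.92% of members, 4.55% of all probes) and 6 lower (Rpl21, Rpl3, Rpl7l1, Rplp0, Rps24 and Rpsa; 9.84% of members, 8.16% of all probes). Rplp0 and Rps24 were lower in every aged intact rat than in every adult rat, a separation shown by 1.83% of all probes in that direction. In aged impaired rats 0 members were called (0.363% of all probes), and 14 had an unadjusted p under 0.05 (16.3% of all probes), 13 of them higher (21.3% of members, 6.59% of all probes) and 1, Rps24, lower (1.64% of members, 9.7% of all probes). Rpl22 was the member whose aged impaired rats all lay above all adult rats, as did 1.07% of all probes. The median log2 difference of the members was 0.04 for aged intact and 0.05 for aged impaired rats. Without adult replicate 4 these medians were -0.01, with 30 of 62 members above 0, and 0.03, with 34 of 62 above 0. For all aged against adult rats, leaving out that array cut the members at this unadjusted level from 12 to 3 higher and from 5 to 1 lower. Among all probes those shares went from 6.25% to 4.27% higher and from 11.0% to 6.75% lower.

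Between the aged groups, which shared a slide, 0 of 61 members were called, as were 0% of all 10457 probes. At an unadjusted p under 0.05 there were 3 members, or 4.92% against 3.31% of all probes. They were Rplp0, Rpl32 and Rpl24, all higher in aged impaired rats, where 1.48% of all probes were higher and 1.83% lower. Rplp0, the stalk protein that anchors the acidic proteins Rplp1 and Rplp2, had 13.77, 13.65, 13.81, 13.80 and 13.75 in aged intact rats and ran from 13.77 to 14.04 with a median of 13.85 in aged impaired rats. The 2 groups overlapped at their edges, and the adult rats, at 13.87, 14.01, 13.84, 13.85 and 13.88, lay within the impaired range. The difference for Rplp0 was 0.14 ± 0.048 (SE; limma adjusted p = 0.996). Rpl32 and Rpl24, both of the large subunit, differed by 0.11 ± 0.045 and 0.19 ± 0.080 (SE), each with a limma adjusted p of 0.996. Rpl24 reached 11.10, 10.99 and 11.21 in aged impaired replicates 3, 4 and 6 and stayed at or below 10.94 in the other 4, and the highest aged intact value was 10.88. Without aged impaired replicate 6, 1 member, Rplp0, was left at that unadjusted level.

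On the side of lower values in aged impaired rats stood Rpl22l1, Rps3 and Rpl27a. Their differences were -0.13 ± 0.069, -0.13 ± 0.11 and -0.08 ± 0.11 (SE), each with a limma adjusted p of 0.996. Rpl22l1 is also dim, at a mean level of 7.37, and its difference was -0.22 with no background correction, -0.27 with the background spread from the middle of the negative controls and -0.26 with average normalization, and -0.08 without aged intact replicate 2. Without aged intact replicate 1 the difference was -0.05 for Rps3 and -0.0090 for Rpl27a. Over all members the differences between the aged groups ran from -0.13 for Rps3 to 0.22 for Rps13, with a median of 0.05 against 0.00 for all probes. Without aged impaired replicate 6 Rps13 differed by 0.11. Of the 61 members, 48 had the higher mean in aged impaired rats, where 50% of all probes did. Without aged impaired replicate 6 the count was 39 of 61 and the median 0.02. The 95% interval lay within 1.2-fold for 39 members and within 1.5-fold for 58. Among the 39 were dim members such as Rpl5 and Rpl3l, whose differences depended on the background used.

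The members varied together from rat to rat. After the mean of each group was removed, the mean pairwise correlation between members over the 17 arrays was 0.245, against 0.0053 between all tested probes, as a description of probes that share arrays and hybridisation. Quantile normalization gives every array the same distribution over all probes of the array, which limits shifts shared by all probes. Its part in the low value over all tested probes was not tested. Of all tested probes, 6219 had a mean log2 intensity under 8, against 7 members. The value over all probes is therefore no measure for probes as bright as most members. With the group means removed in the same way, a first principal component held 56.1% of the variance of the members and 28.9% of that of all tested probes. With the differences between groups kept in, it held 58.6% and 31.4%. Adult replicate 4 lay at one end of the latter component over the members, at -3.34, and aged impaired replicate 6 at the other, at 1.94. Without adult replicate 4, the first component with group differences kept in held 45.2% of the variance of the members. The mean pairwise correlation without that array, with group means removed, was 0.288 between members and 0.0011 between all tested probes. The within-group SD had a median of 0.14 over the members and 0.10 over all probes, and it ran from 0.028 for Rpl3l to 0.48 for Rps2. Among probes with a mean log2 intensity from 10 to 12 the median SD was 0.23 for the 14 members and 0.16 for all. Among probes of 13 and over it was 0.10 for the 18 members and 0.11 for all.

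Adult replicate 4 was the lowest of all 17 arrays for 27 of 61 members and for 18.8% of all probes. It was the highest of all 17 for 8 members and for 26.2% of all probes. In it, 11 members lay more than 0.5 log2 units below their own mean over all arrays. Rps2, a small subunit protein, was at 8.55 there and between 9.98 and 10.33 in the other 4 adult rats. Rpl13a was at 9.67 against 10.77 to 10.99, and Rpl23, of the large subunit, at 9.90 against 10.42 to 10.88. Not all members were low on this array, since Rpl7l1 and Rpl7a were at 10.77 and 12.41 there, the highest of the adult rats. Aged impaired replicate 6 was the highest of 17 for 20 members and for 10.3% of all probes, and 52 of its 61 members lay above their own mean. The shares of all probes for the counts of 11 and 52 members were not taken, so neither count is shown to be particular to the members.

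**Figure D3:**
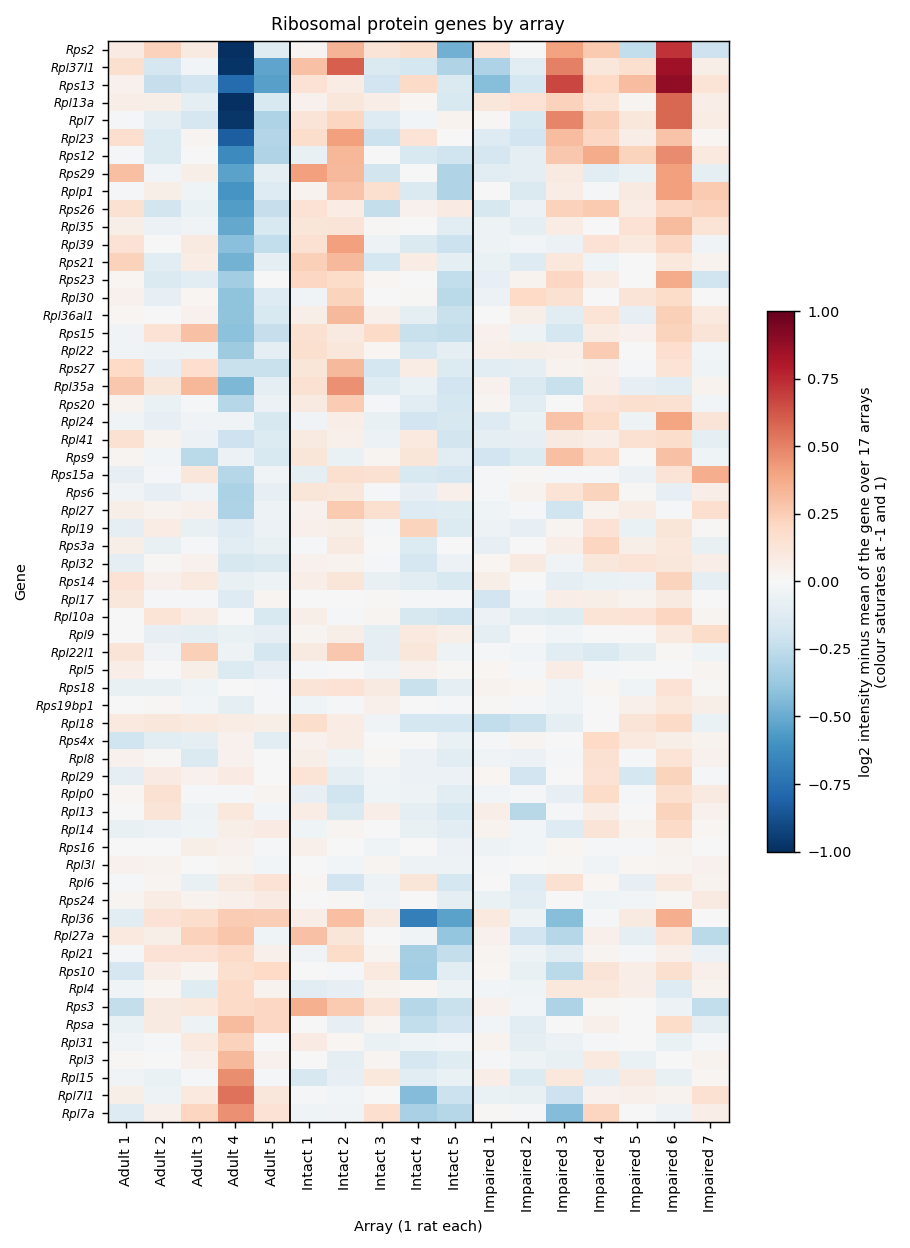
Log2 intensity of each of the 61 members (rows) on each of the 17 arrays (columns) minus the mean of the gene over all arrays, in colour from blue (lower) to red (higher), with genes ordered by their loading on the first principal component and black lines between adult, aged intact and aged impaired rats. Adult replicate 4 (column Adult 4) is blue for the upper rows and red for the lowest rows, and aged impaired replicate 6 (column Impaired 6) is red for the upper rows.

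Without adult replicate 4, Rplp2 passed the detection filter and 62 members were tested, of which 0 were called for aged against adult rats. The members with an unadjusted p under 0.05 fell from 17 to 4, with Rpl7, Rps4x and Rps6 higher and Rps24 lower, while the share of all probes at that level went from 17.2% to 11.0%. The median of the members went from 0.05 to 0.01, and 33 of 62 were above 0. The difference for Rps2 went from 0.35 to 0.02, for Rpl13a from 0.38 to 0.13 and for Rpl7 from 0.43 to 0.27 (limma adjusted p = 0.388). For Rps13 it went from 0.46 to 0.35. For Rpl22 it went from 0.16 to 0.10 and for Rps26 from 0.24 to 0.15. Rps4x moved the other way, to 0.16 ± 0.035 (SE; limma adjusted p = 0.090).

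**Figure D4:**
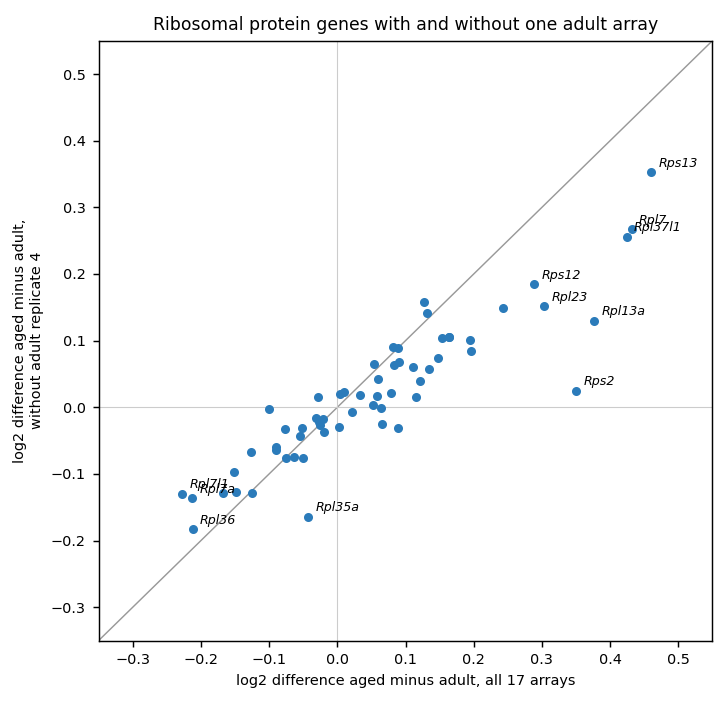
Log2 difference of aged minus adult rats for each member with all 17 arrays (horizontal axis) and without adult replicate 4 (vertical axis), with 1 point per gene and the grey diagonal where both are equal. Rps2, Rpl13a and Rpl23 lie far below the diagonal, with Rps2 going from 0.35 to 0.02.

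The motifs at the start sites were set beside these differences as a description. They do not divide the members by tract. A run of 8 bases or more was present in 34 of the 38 members with a motif and in 4 of the 14 without. The 38 members with at least 1 of the 3 motifs had a median log2 difference of 0.05 with age, 22 of them above 0, and ranged from -0.21 to 0.46. The 14 members without had a median of -0.01, 7 of them above 0, and ranged from -0.23 to 0.29. On adult replicate 4 the median deviation from the mean over all arrays was -0.12 for the 38 and -0.0020 for the 14. Without that array the 38 had a median difference with age of 0.01, 20 of them above 0, and the 14 a median of -0.0049, 7 of them above 0. Rpl13a and Rps24, with runs of 14 and 17 bases, lay on opposite sides of 0. The run of Rpl13a begins at base -15 from the annotated start and ends before that start. The run of Rps24 begins at base -8 and reaches into the transcript. Rps4x, whose longest run begins 13 bases into the transcript, was on the higher side.

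Other genes of ribosome production were set beside the members from lists of fixed names. Rack1, a scaffold protein of the small subunit outside the symbol rule, was higher with age by 0.20 ± 0.075 (SE; limma adjusted p = 0.183), and Fau by 0.07 ± 0.095 (SE; limma adjusted p = 0.736). Of 12 tested TOP mRNAs of translation factors and related proteins, 0 passed the test, with a median of 0.05. The elongation factor Eef1a1, whose mRNA is a classic TOP transcript, differed by 0.05 ± 0.071 (SE). Of 57 tested mitochondrial ribosomal protein genes, which serve the separate ribosome of that organelle, 0 passed, 17 were above 0 and the median was -0.04.

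Of 31 tested ribosome biogenesis genes, 1 was lower and 0 higher, where 0.708% of all probes were called lower and 0.488% higher. Polr1c, a subunit shared by RNA polymerases I and III, averaged 10.11 ± 0.11 (SD, n = 5 adult rats), 9.84 ± 0.11 (SD, n = 5 aged intact rats) and 9.89 ± 0.085 (SD, n = 7 aged impaired rats), with a limma adjusted p of 0.043 with age. Of 21 tested regulators of mTOR and S6 kinase, 1 was lower and 0 higher. Tsc2, the GTPase-activating protein that restrains mTOR complex 1, averaged 9.41 ± 0.26 (SD, n = 5), 8.83 ± 0.25 (SD, n = 5) and 8.81 ± 0.24 (SD, n = 7), a difference of -0.59 ± 0.13 (SE; limma adjusted p = 0.043). Both genes passed in 5 of the 17 fits that left out 1 array. Over those fits the log2 difference ran from -0.27 to -0.19 for Polr1c and from -0.63 to -0.47 for Tsc2, with limma adjusted p up to 0.129 and 0.139, both without adult replicate 4. Mtor itself differed by -0.03 ± 0.047 (SE). Between the aged groups 0 genes of these lists passed, as for all probes.

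**Figure D5:**
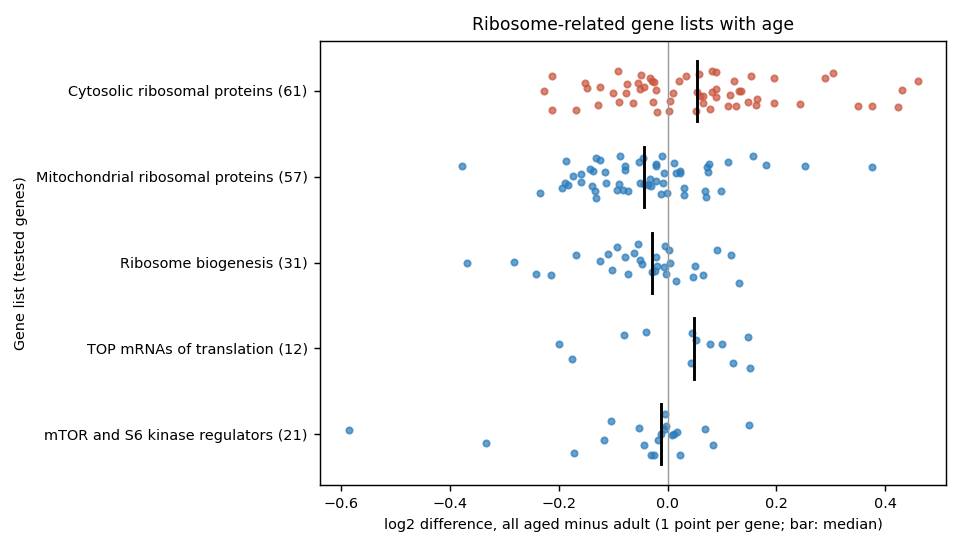
Log2 difference of all aged minus adult rats (horizontal axis) for the tested genes of 5 lists (rows), with 1 point per gene and a bar at the median. The median was 0.05 for the 61 cytosolic and -0.04 for the 57 mitochondrial ribosomal protein genes, and the leftmost point, in the mTOR list, is Tsc2 at -0.59.

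The content of the fraction was checked with marker genes, since in bulk samples fewer cells of a type and less RNA per cell cannot be told apart. All 10 neuronal markers were detected, with 1 lower in aged rats (Stmn2) and a summed log2 level of 15.53 to 15.69 in adult, 15.45 to 15.75 in aged intact and 15.43 to 15.62 in aged impaired rats. Of 12 microglial markers 10 were tested, all 10 had higher means in aged rats and P2ry12 passed the test, with a summed level of 13.52 to 13.83 in adult, 14.01 to 14.19 in aged intact and 13.95 to 15.20 in aged impaired rats. P2ry12 passed in 10 of the 17 fits that left out 1 array, with a log2 difference of 0.51 to 0.59 and a limma adjusted p up to 0.102, without adult replicate 4. The summed level of the ribosomal protein members themselves was 18.31 to 18.42 in adult, 18.28 to 18.50 in aged intact and 18.36 to 18.56 in aged impaired rats, so that the groups overlapped.

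Of 10 oligodendrocyte markers 9 were tested, with 0 called in any comparison, and 0 of 9 had a higher mean in aged impaired than in aged intact rats (median -0.22). Of 10 astrocyte, 8 endothelial and 6 choroid plexus and ependymal markers, 6, 4 and 2 were tested and 0 were called. The part of these markers, of the slide and of the quality of single RNA samples in the values of the ribosomal protein genes was not tested.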

How the data were processed

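RNA of hippocampal synaptosomes was hybridised to Illumina RatRef-12 arrays, 1 per rat, in 3 groups of 5 adult, 5 aged intact and 7 aged impaired rats. Replicates are numbered as in the label descriptions, which for adult and aged intact rats differ from the numbers in the titles. The authors deposited, from GenomeStudio (1.0.6 in the submitters' processing notes), the mean bead intensity per probe with no background subtraction or normalization, and a detection p-value per probe from the negative control beads. The value table of the series holds identical intensities. Using limma 3.58.1 under R 4.3.3, neqc gave log2 intensities (background from the detection p-values, offset of 16, quantile normalization), and probes detected at p under 0.05 by all arrays of 1 group or more were kept. The 3 groups were fitted with lmFit and eBayes in 4 comparisons, with Benjamini-Hochberg adjustment over all 10457 probes at 0.05. Aged is the mean of both aged group means. Precision is limited by the number of arrays.

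Symbols came from the platform annotation, updated by Entrez ID. Named were the 6 members with the smallest p each way for aged against adult, the 3 each way between the aged groups, and members with a known role or a paralogue. Rps2, Rpl23, Rps19bp1 and genes of the other lists were named after their values were seen. The members and lists were chosen with earlier results of these data known. Set tests were not run. Start-site windows were from RefSeq GRCr8, with 51 genes matched by gene ID and 1 by symbol. The fit was tested on simulated data. Alternatives were median scaling, signals without normalization, average normalization with background subtraction, no or a robust background, an offset of 50, other detection filters, a fit of the compared groups alone, weights for arrays, the position on the slide, a replicate block, averages over probes, the methods' test and each array left out. Leaving out adult replicate 4 and aged impaired replicate 6 together was added after seeing the data. Labels do not say whether rats shared litters.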

Additional observations from a re-analysis of the deposited data

Results flagged for a closer look

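Over 25 named members, each with its values per array, and the median deviation of all members on each array, 11 values stood apart from the rest of their group, with a gap to the next value above Dixon's 95% limit for the group's range. Chance flags about 1 in 20 of the groups tested, and 78 groups were tested. Adult replicate 4 held 6 of them. It was the lowest adult for Rpl13a at 9.67 (next 10.77), Rpl22 at 11.81 (next 12.06), Rplp1 at 12.30 (next 12.76) and Rps6 at 12.60 (next 12.83), and the highest adult for Rpl3 at 13.81 (next 13.54) and Rpl7l1 at 10.77 (next 10.34). Aged impaired replicate 6 was the highest of its group for Rpl13a at 11.50 (next 11.15).

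The other values stood on 4 arrays. Rplp0 was at 14.01 in adult replicate 2 (next 13.88), Rps3 at 12.27 in adult replicate 1 (next 12.59), Rps26 at 12.59 in aged intact replicate 3 (next 12.87), and Rpl7a at 11.52 in aged impaired replicate 3 (next 11.90). Over all 61 members, 19 of 183 groups held such a value, and 8 of the 19 were on adult replicate 4, 5 as the lowest and 3 as the highest adult.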

How the results depend on the processing

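Across the alternatives, 246 of 254 counts and medians of the members kept their value within the limits set. The count of called members was 0 in every fit that left out 1 array. A count had to stay at 0 and a median to move by less than 0.089, the within-group SD of the mean member level. That limit is wider than the medians themselves, so a median could change sign and still count as kept. The median for aged intact against adult did so without adult replicate 4, going from 0.037 to -0.0053. Array weights called 1 member, Rps4x, for aged against adult (0.14, limma adjusted p = 0.020, against 0.020 to 0.759 over all alternatives) and 1 for aged impaired against adult. Log2 signals without normalization called 12 members for aged impaired against adult, where 364 of all 10457 probes were called. They moved the member medians to 0.31 for aged, 0.26 for aged intact and 0.37 for aged impaired against adult. Between the aged groups the member median moved to 0.17. Over all probes the median was 0.22 for aged against adult. The methods' test was the authors' one-way ANOVA with Student-Newman-Keuls pairs and a 1.2-fold limit. It was run here on the neqc values, whereas the authors used average normalization with background subtraction. It called 3 members (Rpl7, Rps12 and Rps13) for aged impaired against adult, where 300 of all 10457 probes were called. After Benjamini-Hochberg adjustment the methods' test called 0 members. It has no pair for all aged against adult and was not run there.

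Of 1550 values of named genes, 1493 kept direction and side and 56 changed sign, none of them called. For aged against adult, signals without normalization gave Rpl21 0.12, Rpl22l1 0.21, Rpl27a 0.091, Rpl3 0.15, Rpl3l 0.20, Rpl7a 0.031, Rpl7l1 0.00030, Rplp0 0.24, Rps14 0.23, Rps24 0.11, Rps3 0.15 and Rpsa 0.11, and between the aged groups Rpl27a 0.046 and Rps27 0.021. Median scaling gave Rplp0 0.0061 and Rps14 0.00079, and average normalization Rplp0 0.00085 for aged against adult and Rpl39 -0.0057 between the aged groups. Array weights gave Rpl5 -0.011 and Rps27 -0.012 with age, and Rpl39 -0.032 and Rps14 -0.0040 between the aged groups. The position on the slide gave Rpl27a 0.033, Rps24 -0.032 and Rps27 0.00044 between the aged groups. With adult replicate 4 and aged impaired replicate 6 left out, Rpl5 was -0.0061 and Rps27 -0.0077 with age, and Rpl39 -0.017, Rps14 -0.012 and Rps24 -0.0023 between the aged groups. The cause was not tested.

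Leaving out 1 array moved Rpl22l1 with age from -0.067 to 0.035 and Rpl5 from -0.0075 to 0.043. Between the aged groups it moved Rps27 from -0.10 to 0.022, Rpl39 from -0.052 to 0.11, Rps24 from -0.016 to 0.017, Rpl21 from -0.0026 to 0.13, Rps6 from -0.013 to 0.039, Rps14 from -0.013 to 0.062 and Rpl5 from -0.00012 to 0.020.

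With the replicate number as a block, 0 members were called and the median with age was 0.04, while Rpl39 was -0.0088, Rplp1 -0.0061, Rps14 -0.00065 and Rps24 -0.026 between the aged groups. The number did not pair the rats, since same-numbered arrays correlated from -0.38 to 0.24 and 1 of 15 correlated best with its own number.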
